A study of Bos taurus with 6 samples.

Results

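The ATF4 branch of the integrated stress response was followed in bovine (Bos taurus) blastocysts, the hollow embryos that form before implantation, with 10 genes listed by symbol: ATF4, ATF3, ATF5, DDIT3, DDIT4, TRIB3, ASNS, CHAC1, SLC7A5 and SLC7A11. Of these, 9 were among the 12826 genes of the count table and ATF5 was not analysed here. All 9 passed the filter on low counts, which left 12732 genes for testing. The genes were listed by symbol. Embryos had been produced in vitro from slaughterhouse material and were at day 7. The 3 BHB libraries came from embryos treated with beta-hydroxybutyrate, a ketone body that circulates in fasting and in dairy cows after calving, and the 3 control libraries from embryos without it. Every library stands for pooled embryos; neither the dose and duration of treatment nor the pool size is given in the sources used here. No label says whether the pools were independent cultures, so the p-values speak of the spread among these 6 libraries, which may be technical.

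The integrated stress response begins with kinases that sense a lack of amino acids, misfolded protein in the endoplasmic reticulum, double-stranded RNA or a lack of heme. Each phosphorylates the translation factor eIF2, which lowers protein synthesis in general but lets the mRNA of ATF4 be translated. ATF4, a transcription factor of the basic leucine zipper class, then raises genes for amino acid synthesis and import and further transcription factors, and a prolonged response can lead to apoptosis. ATF4 protein is set largely by translation, so the mRNA levels given here do not measure its activity.

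Totals ran from 6440732 to 7348949 counts in BHB libraries and from 7925889 to 8176648 counts in control libraries. The 5 trophectoderm markers (CDX2, GATA3, TFAP2C, KRT8 and KRT18) summed to 8229 to 13351 CPM (counts relative to a fixed total, on library sizes scaled by edgeR's TMM factors) in BHB libraries and to 10454 to 17039 CPM in controls. POU5F1 and NANOG of the inner cell mass summed to 310 to 357 CPM with BHB and to 350 to 382 CPM in controls, and the primitive endoderm marker GATA6 was at up to 132 CPM with BHB and 117 CPM in controls; SOX2 and SOX17 were not analysed here. Of 8 cumulus or granulosa markers 2 had values (FSHR and CYP19A1, together up to 24.5 CPM with BHB and 26.8 CPM in controls), and of 5 oocyte markers 1, ZP3, at up to 2.77 and 2.65 CPM. Of 5 fibroblast markers 4 had values (COL1A1, COL1A2, DCN and LUM, together 55.9 to 99.2 CPM with BHB and 73.4 to 110 CPM in controls), and of 4 blood markers 1, CD68, at 2.42 to 2.77 CPM with BHB and 1.33 to 2.27 CPM in controls. In pools of whole embryos, fewer cells of a type and less RNA per cell cannot be told apart.

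The 9 genes of the ATF4 branch did not share a direction with BHB. Their 95% intervals had a median full width of 0.92 on the log2 scale, so small shifts could go unseen. By edgeR's quasi-likelihood test, 0 of the 9 genes passed at an adjusted p of 0.05, against a background of 0% of the 12732 tested genes, with an adjusted p of 0.999 for all 9. Relative to controls, 5 genes had a positive and 4 a negative log2 fold change, with 50.9% of all tested genes negative. The median of the 9 log2 fold changes was 0.016, beside -0.0050 over all tested genes. The gene with the smallest unadjusted p was ASNS, lower with BHB (unadjusted p = 0.0439, adjusted p = 0.999 in edgeR), and 2.73% of all tested genes had an unadjusted p under 0.05. Groups overlapped in all 9 genes; over all tested genes, they did not overlap in 7.84%. DESeq2's Wald test, which called 0.0471% of the genes it tested, and limma-voom, which called 0%, passed 0 of the 9 genes.

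ATF4 itself was at 414, 482 and 384 CPM in BHB libraries 1 to 3, against 568, 519 and 361 CPM in control libraries 1 to 3. Control libraries 1 and 2 were the highest of the 6, and control library 3 was the lowest, below every BHB library. The means were 427 ± 50.0 CPM with BHB and 483 ± 108 CPM in controls (SD, n = 3 each). The log2 fold change was -0.18 (SE 0.18), with a 95% interval of -0.59 to 0.23, that is 0.666 to 1.17 times the control level. In human, ATF4 and SLC7A5 have pseudogene copies, and how the authors' counting treated reads from similar sequences is not given in the sources used here.

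**Figure D1:**
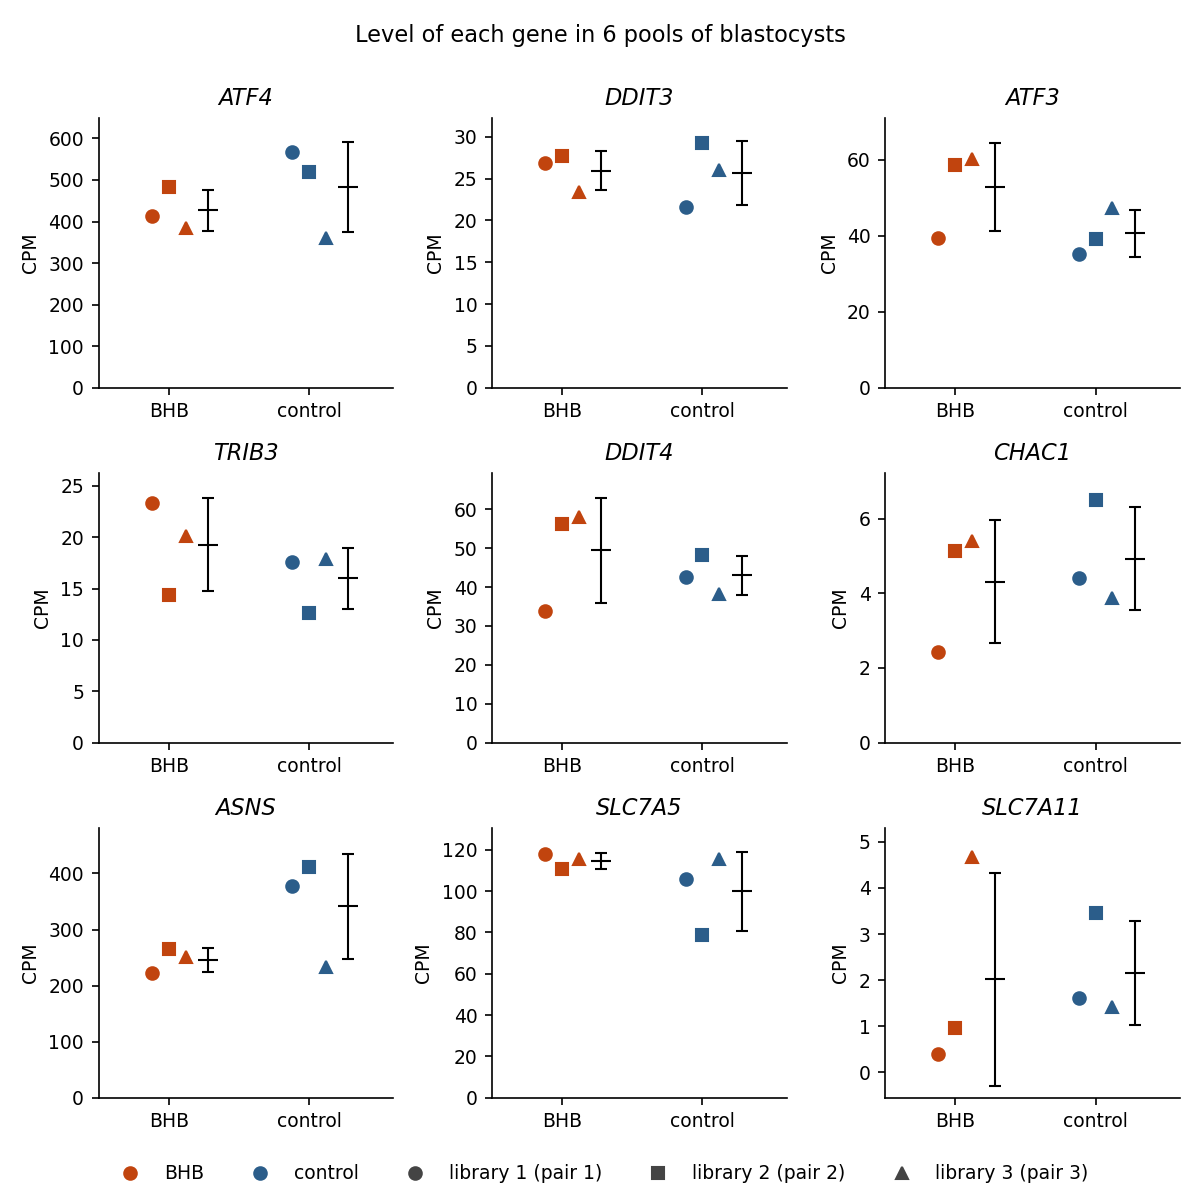
Level of each of the 9 genes in CPM (vertical axes, a scale per gene) in 3 BHB and 3 control libraries; circles, squares and triangles are libraries 1, 2 and 3, and the black bar is the mean ± SD. For ASNS, control libraries 1 and 2 stand at 378 and 412 CPM, while the 3 BHB libraries and control library 3 lie between 222 and 265 CPM.

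Of the transcription factors downstream of ATF4, DDIT3 (also called CHOP), which promotes apoptosis in prolonged stress, had the smallest difference of the 9 genes. It was at 26.8, 27.7 and 23.3 CPM in BHB libraries, against 21.6, 29.3 and 26.1 CPM in control libraries. The BHB values lay wholly within the range of the controls. Its log2 fold change was 0.016 (SE 0.18), and the 95% interval ran from 0.758 to 1.35 times the control level. In the ARS-UCD2.0 gene table, DDIT3 overlaps LOC132345297, which was not analysed here, and MARS1, the methionyl-tRNA synthetase gene, which was at 99.8 ± 22.6 CPM with BHB and 120 ± 23.6 CPM in controls (SD, n = 3 each; log2 fold change -0.26, SE 0.20). The libraries were stranded per the labels' protocols, but the strand setting of the counting is not given in the sources used here, so reads of these neighbours could count toward DDIT3.

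ATF3, a stress-induced transcription factor of the same class that acts mainly as a repressor, was higher on average with BHB, without passing. Its level was 39.5, 58.7 and 60.3 CPM in BHB libraries, against 35.3, 39.2 and 47.4 CPM in control libraries. BHB libraries 2 and 3 were above every control, and BHB library 1 was above control libraries 1 and 2. The means were 52.8 ± 11.6 CPM with BHB and 40.6 ± 6.21 CPM in controls (SD, n = 3 each), and the log2 fold change was 0.38 (SE 0.20, unadjusted p = 0.0975, adjusted p = 0.999 in edgeR). The interval reached from 0.944 to 1.79 times the control level.

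TRIB3, a pseudokinase that ATF4 and DDIT3 induce and that in turn restrains them, was at 23.3, 14.4 and 20.1 CPM in BHB libraries and at 17.6, 12.6 and 17.8 CPM in control libraries. Library 2 was the lowest of its group in both. The log2 fold change was 0.27 (SE 0.25), from 0.820 to 1.76 times the control level. DDIT4 (REDD1), which inhibits the growth kinase complex mTORC1, was at 33.9, 56.2 and 58.1 CPM with BHB and at 42.5, 48.3 and 38.3 CPM in controls. BHB library 1 was the lowest of the 6 and BHB libraries 2 and 3 were the highest, and the log2 fold change was 0.20 (SE 0.22). CHAC1, an enzyme that degrades glutathione, had 18, 37 and 37 counts in BHB libraries and 33, 49 and 33 counts in controls. The exact Poisson interval of its lowest count, 18, ran from 10.7 to 28.4 at 95%, and the log2 fold change was -0.19 (SE 0.40). Poisson intervals here and below cover counting error only.

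ASNS encodes asparagine synthetase, which makes asparagine from aspartate and glutamine and is among the best known targets of ATF4. It was at 222, 265 and 251 CPM in BHB libraries, against 378, 412 and 234 CPM in control libraries. Control libraries 1 and 2 stood well above the other 4 libraries, and control library 3 lay inside the BHB range. The means were 246 ± 21.8 CPM with BHB and 341 ± 94.5 CPM in controls (SD, n = 3 each). The log2 fold change was -0.47 (SE 0.20), or 0.720 times the control level with an interval of 0.525 to 0.989. Without control library 3 the log2 fold change was -0.68 (adjusted p = 0.602 in edgeR), and without control library 2 it was -0.31 (adjusted p = 1 in edgeR), so its size moved with single controls. The adjusted p over all alternatives ran from 0.119 to 1.

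The 2 libraries with the highest ASNS were also those with the highest ATF4, and the level of each could share the scaling of its library. The ratio of ASNS to ATF4 counts within a library carries no such scaling. It was 0.536, 0.549 and 0.652 in BHB libraries and 0.666, 0.793 and 0.648 in control libraries. BHB libraries 1 and 2 were below every control, while BHB library 3 was above control library 3. The mean ratio was 0.579 ± 0.063 with BHB and 0.702 ± 0.079 in controls (SD, n = 3 each). The permutation test took the difference of mean log2 ratios, without pairing. It gave a two-sided exact permutation p = 0.2, where 0.1 is the smallest this design allows. Among 5 ratios to ATF4 computed (ASNS, ATF3, TRIB3, DDIT3 and SLC7A5), the adjusted exact permutation p was 0.5 to 0.7. That of ATF3 was 0.095, 0.122 and 0.157 with BHB and 0.062, 0.076 and 0.131 in controls (exact permutation p = 0.3).

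**Figure D2:**
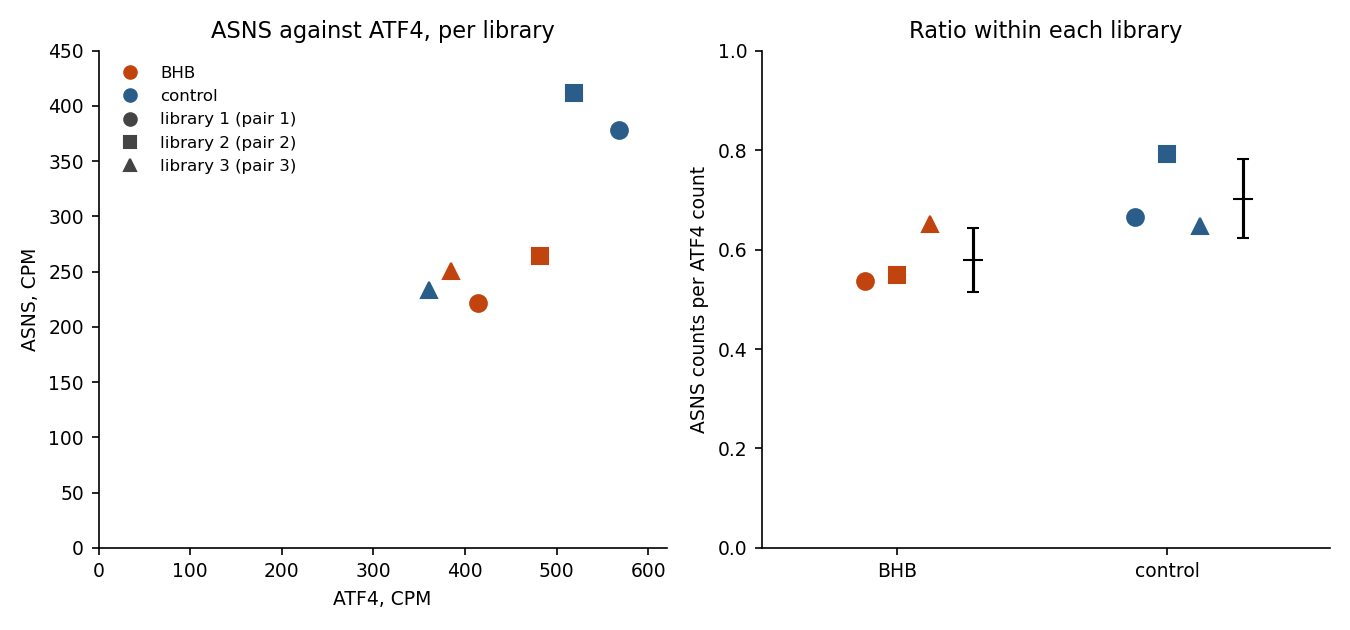
Left, ASNS (vertical) against ATF4 (horizontal), both in CPM, in each library; right, ASNS counts per ATF4 count in each library, with the mean ± SD. Shapes mark libraries 1 to 3. Control libraries 1 and 2 lie apart at the upper right, and the ratios of BHB libraries 1 and 2, 0.536 and 0.549, are the lowest of the 6.

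The transporters of the list differed in how well they were measured. SLC7A5 (LAT1) exchanges large neutral amino acids such as leucine across the plasma membrane together with the heavy chain SLC3A2. It was at 118, 111 and 115 CPM in BHB libraries and at 106, 78.8 and 116 CPM in control libraries. Control library 2 was the lowest of the 6, and the BHB libraries lay close together, all above control libraries 1 and 2. The log2 fold change was 0.20 (SE 0.16), from 0.890 to 1.47 times the control level. SLC3A2 was at 150 ± 13.2 CPM with BHB and 149 ± 11.9 CPM in controls (SD, n = 3 each; log2 fold change 0.0079, SE 0.13).

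SLC7A11 (xCT) imports cystine in exchange for glutamate, again with SLC3A2, and so feeds glutathione synthesis. It had 3, 7 and 32 counts in BHB libraries and 12, 26 and 12 counts in control libraries, 92 in all. BHB library 3 was the highest of the 6 and the other BHB libraries were the lowest. The exact Poisson interval was 0.619 to 8.77 counts in BHB library 1 and 21.9 to 45.2 counts in BHB library 3. The log2 fold change was -0.10 (SE 0.79), and its interval, 0.273 to 3.18 times the control level, covers both directions.

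**Figure D3:**
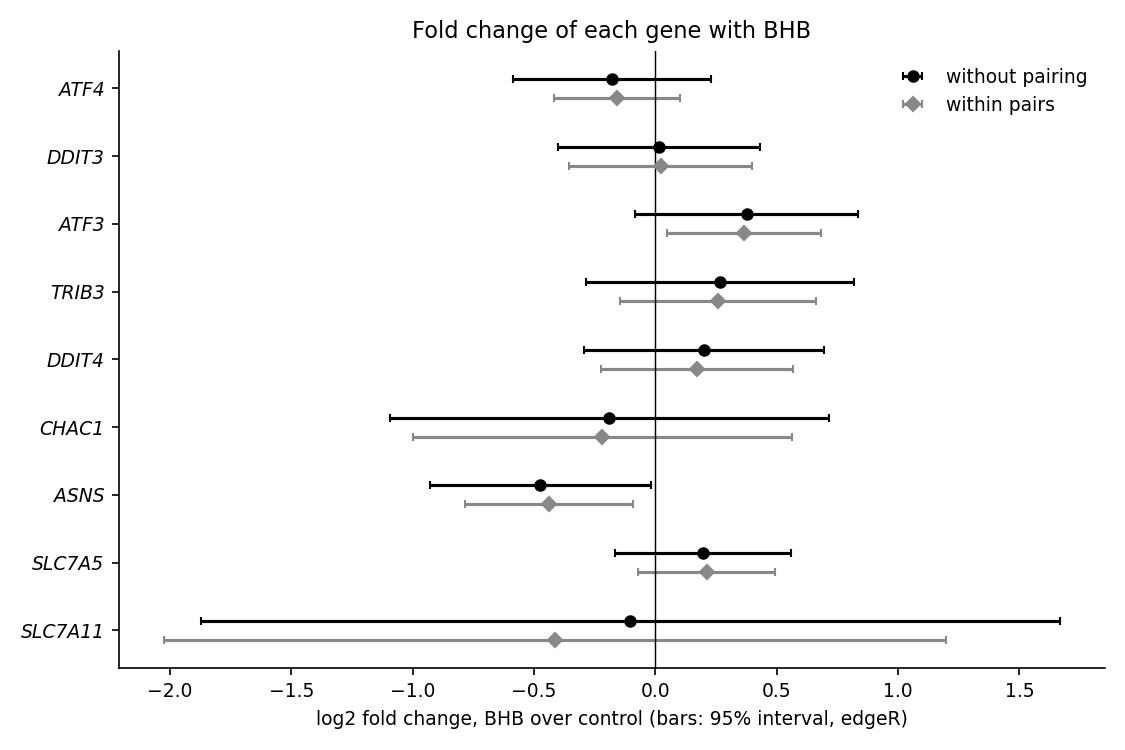
Log2 fold change of each gene, BHB over control (horizontal axis), with 95% intervals from edgeR; black circles are the test without pairing and grey diamonds the test within pairs. Without pairing the interval of ASNS, -0.93 to -0.02, is the only one of the 9 that does not cross 0; within pairs that of ATF3, 0.05 to 0.68, does not either.

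The libraries could also be compared within pairs. A refit of the authors' deposited p-values showed that their model paired BHB library 1 with control library 1, 2 with 2 and 3 with 3; the labels do not state this. Within pairs, ATF3 and TRIB3 were higher with BHB in 3 of 3 pairs, by 0.16, 0.58 and 0.34 and by 0.40, 0.19 and 0.17 on the log2 CPM scale. Of all tested genes 14.5% were higher in 3 of 3 pairs. None of the 9 genes was lower in 3 of 3 pairs, against 15.7% of all tested genes.

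The difference in ASNS was -0.77 in pair 1, -0.64 in pair 2 and 0.10 in pair 3, and that in ATF4 was -0.46, -0.11 and 0.09. CHAC1 (-0.80, -0.33 and 0.45) and SLC7A11 (-1.48, -1.59 and 1.56) had the same order of signs. In these 4 genes, then, BHB was lower in pairs 1 and 2 and higher in pair 3. The share of all tested genes with that order was not computed. In pair 3 the differences in ATF4 and ASNS were small. For CHAC1 it rested on 37 counts with BHB and 33 in control, with exact Poisson intervals of 26.1 to 51 and 22.7 to 46.3. DDIT4 differed by -0.32, 0.22 and 0.60, SLC7A5 by 0.16, 0.49 and -0.0031, and DDIT3 by 0.31, -0.08 and -0.16.

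**Figure D4:**
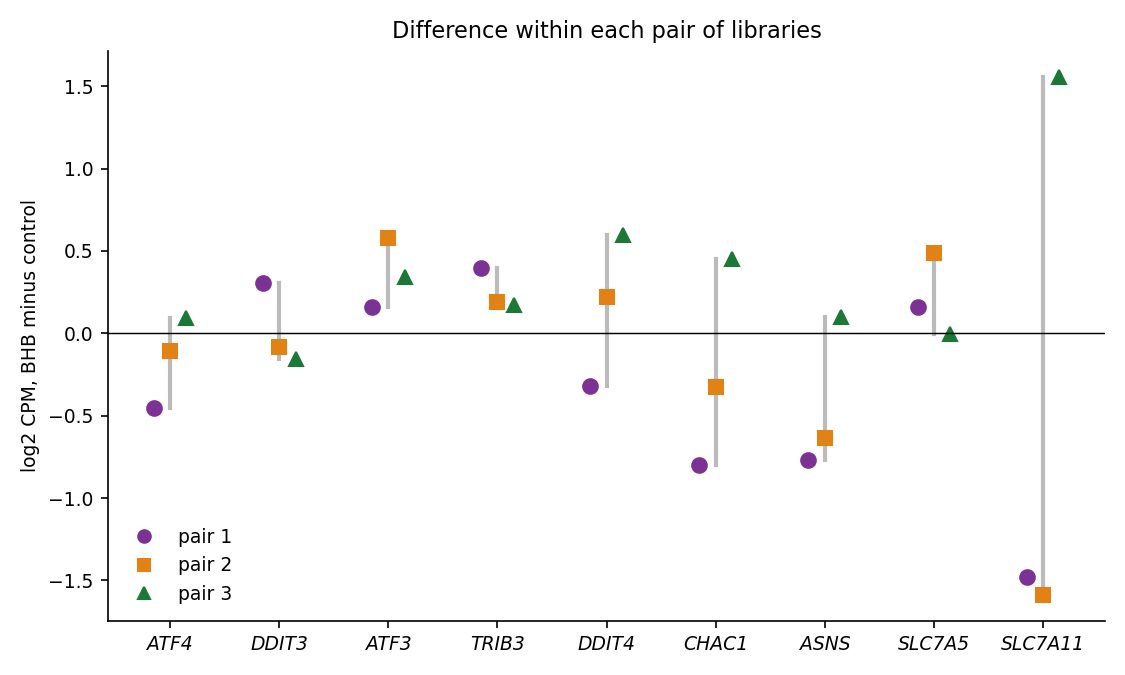
Difference in log2 CPM, BHB minus control (vertical axis), for each gene in pairs 1 (circles), 2 (squares) and 3 (triangles); grey bars span the 3 values. ATF3 and TRIB3 lie above 0 in all 3 pairs, and for ATF4, ASNS, CHAC1 and SLC7A11 pair 3 lies above 0 and the others below.

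With the pair as a block, edgeR called 0% of all tested genes and 0 of the 9, with 8.2% of all tested genes at an unadjusted p under 0.05. ASNS (log2 fold change -0.44, SE 0.16, unadjusted p = 0.0178, adjusted p = 0.533 in edgeR) and ATF3 (0.37, SE 0.14, unadjusted p = 0.0277, adjusted p = 0.561 in edgeR) were the 2 genes of the 9 at that level. DESeq2's Wald test with the block called 0.333% of the genes it gave an adjusted p, and 0 of the 9; ASNS had an adjusted p of 0.458 and SLC7A11 was given none. ASNS stood at a log2 fold change of -0.69 without pair 3 (adjusted p = 0.119 in the blocked edgeR test), at -0.27 without pair 1 (adjusted p = 0.747) and at -0.33 without pair 2 (adjusted p = 0.976).

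In the authors' deposited table, ASNS had p = 0.00548 and adjusted p = 0.0675, ATF4 p = 0.027 and adjusted p = 0.205, and ATF3 p = 0.0334 and adjusted p = 0.236. By the refit, that p tests pair and treatment together, so it does not separate BHB from the pair. Tested on its own with treatment in the model, the pair called 4.12% of all tested genes and 0 of the 9 (edgeR's quasi-likelihood test). ATF4 had the smallest p of the 9 for the pair (unadjusted p = 0.0289, adjusted p = 0.188), followed by ATF3 (unadjusted p = 0.0387, adjusted p = 0.215).

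Genes upstream of ATF4 and beside it were taken as 8 lists from general knowledge of the pathway, and 0 genes of any list passed edgeR's test in either direction, without pairing or with the block. At an unadjusted p under 0.05, the background was 2.73% of all tested genes without pairing and 8.2% with the block. In 3 of 3 pairs, 14.5% of all tested genes were higher with BHB and 15.7% lower. Among 21 eIF2 kinases, sensors, subunits and phosphatases, 7 log2 fold changes were positive and 14 negative (median -0.10, all genes -0.0050). An unadjusted p under 0.05 was found for 0 without pairing and for 1, EIF2AK2, with the block, and 3 were higher and 5 lower in 3 of 3 pairs. The 4 kinases did not share a direction. The log2 fold change was 0.23 (SE 0.15) for EIF2AK1 (HRI, which senses heme and mitochondrial stress), 0.14 (SE 0.30) for EIF2AK3 (PERK, which senses stress of the endoplasmic reticulum) and 0.20 (SE 0.20) for EIF2AK4 (GCN2, which senses uncharged tRNA); EIF2AK1 and EIF2AK4 were higher in 3 of 3 pairs. EIF2AK2 (PKR), which senses double-stranded RNA and is itself induced by interferon, was at 8.12 ± 4.16 CPM with BHB and 13.6 ± 2.75 CPM in controls (SD, n = 3 each; log2 fold change -0.74, SE 0.38; with the block -0.82, SE 0.31, unadjusted p = 0.0253, adjusted p = 0.549 in edgeR), lower in 3 of 3 pairs. For EIF2AK2, the differences in pairs 1 to 3 were -0.32, -0.40 and -1.80, and the groups overlapped. Its counts in pair 3 were 28 with BHB and 127 in control. EIF2S2, the beta subunit of eIF2, had a log2 fold change of -0.26 (SE 0.16). PPP1R15A (GADD34), the ATF4-induced phosphatase subunit that ends the response, was at 5.48 ± 0.767 CPM with BHB and 4.43 ± 0.674 CPM in controls (log2 fold change 0.30, SE 0.31), higher in 3 of 3 pairs.

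Of 21 tested partners and regulators of ATF4, 12 were positive and 9 negative (median 0.04). An unadjusted p under 0.05 was found for 0 without pairing and for 1, TRIB1, with the block (adjusted p = 0.573 in edgeR). The shares of all tested genes were 2.73% and 8.2%. In 3 of 3 pairs, 7 of the 21 were higher and 3 lower, beside 14.5% and 15.7% of all tested genes. CEBPG, a dimer partner of ATF4, was at 50.2 ± 1.98 CPM with BHB and 49.7 ± 1.23 CPM in controls (log2 fold change 0.016, SE 0.14); CEBPB was not analysed here. For TRIB1, a relative of TRIB3, it was 0.41 (SE 0.20), and for JUNB, a subunit of the AP-1 factor, 0.41 (SE 0.25). Both were named for the smallest p of the list. Their groups did not overlap, as in 7.84% of all tested genes, which by itself makes 3 of 3 pairs higher.

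Amino acid synthesis genes had 7 of 16 tested members positive and 9 negative (median -0.08). Of the 16, 2 were higher and 4 lower in 3 of 3 pairs, beside 14.5% and 15.7% of all tested genes. An unadjusted p under 0.05 was found for 2.73% of all tested genes without pairing and for 8.2% with the block. MTHFD2, a mitochondrial folate enzyme, was at 170 ± 32.1 CPM with BHB and 271 ± 65.0 CPM in controls (log2 fold change -0.67, SE 0.21; adjusted p = 0.999 in edgeR, 0.0922 with the block, and 0.00036 in DESeq2 with the block). PYCR1, which makes proline, was at 3.38 ± 0.853 and 6.30 ± 2.04 CPM (-0.89, SE 0.38), and these were the 2 members with an unadjusted p under 0.05 without pairing; with the block there were 3, with ASS1, an enzyme of arginine synthesis, as the 1 on the higher side. MTHFD2 was the 1 gene of the 8 lists that the blocked DESeq2 test called, and blocked edgeR called 0. Over the whole table, the blocked DESeq2 test called 0.333% of the genes it gave an adjusted p. Unlike ASNS, MTHFD2 and PYCR1 were lower with BHB in pair 3 too, with differences of -0.53 and -0.29. These genes had the 2 smallest p of the list, which by itself makes a shared direction over the pairs likely. For PYCR1, pair 3 rested on 22 counts with BHB and 34 in control.

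Amino acid transporters had 5 of 14 tested members positive and 9 negative (median -0.16). At an unadjusted p under 0.05 there were 0 without pairing and 1, SLC7A8, with the block, and 2 were higher and 5 lower in 3 of 3 pairs. SLC7A8 (LAT2), which like SLC7A5 pairs with SLC3A2, was at 121 ± 20.7 CPM with BHB and 89.2 ± 22.8 CPM in controls (log2 fold change 0.43, SE 0.21; with the block 0.45, SE 0.12, unadjusted p = 0.0035, adjusted p = 0.371 in edgeR), higher in 3 of 3 pairs. SLC36A4 had few counts: 13, 15 and 3 in BHB libraries and 17, 22 and 31 in control libraries, 101 in all. Its log2 fold change was -1.04 (SE 0.55), and the differences in pairs 1 to 3 were -0.33, -0.44 and -2.47. Its groups did not overlap, as in 7.84% of all tested genes, which by itself makes 3 of 3 pairs lower. Cytosolic aminoacyl-tRNA synthetases, which load tRNAs with amino acids and of which many are ATF4 targets, had 6 of 18 positive and 12 negative (median -0.10). Their log2 fold changes lay between -0.35 and 0.08, and IARS1, for isoleucine, was the lowest (279 ± 24.2 CPM with BHB, 355 ± 45.3 CPM in controls; SE 0.14, unadjusted p = 0.0342, adjusted p = 0.999 in edgeR). QARS1, for glutamine, had -0.23 (SE 0.15). At an unadjusted p under 0.05 there was 1, IARS1, without pairing, and 2 with the block, both lower. Of all tested genes, 2.73% without pairing and 8.2% with the block were at that level. Of the 18, 0 were higher and 6 lower in 3 of 3 pairs, beside 14.5% and 15.7% of all tested genes.

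Other stress outputs of ATF4 and DDIT3 had 11 of 23 positive and 12 negative (median -0.0022). Without pairing, 1 of them had an unadjusted p under 0.05, on the higher side, and with the block 2 did, 1 in each direction. Of the 23, 2 were higher and 3 lower in 3 of 3 pairs, beside 14.5% and 15.7% of all tested genes. ATG12 of the autophagy machinery was at 82.0 ± 3.06 CPM with BHB and 96.0 ± 5.16 CPM in controls (SD, n = 3 each; log2 fold change -0.23, SE 0.13). Regulators of mTORC1, the complex that DDIT4 restrains, had 8 of 16 positive and 8 negative (median -0.06). RPTOR, the scaffold subunit of mTORC1, was at 42.7 ± 1.89 CPM with BHB and 55.1 ± 1.80 CPM in controls (-0.37, SE 0.14, unadjusted p = 0.0262, adjusted p = 0.999 in edgeR). The mTORC1 inhibitor DEPTOR had 9, 5 and 9 counts in BHB libraries and 16, 12 and 28 in control libraries, 79 in all. Its log2 fold change was -1.12 (SE 0.50). In ATG12, RPTOR and DEPTOR the groups did not overlap, as in 7.84% of all tested genes. RPTOR was the 1 mTORC1 gene with an unadjusted p under 0.05 without pairing, beside 2.73% of all tested genes. With the block there were 1 on the higher and 2 on the lower side, beside 8.2% of all tested genes. Of the 16, 2 were higher and 4 lower in 3 of 3 pairs, beside 14.5% and 15.7% of all tested genes.

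Genes of glutathione and cystine handling, the setting of CHAC1 and SLC7A11, had 6 of 13 positive and 7 negative (median -0.07). At an unadjusted p under 0.05 there were 3, all lower, without pairing and with the block. The shares of all tested genes were 2.73% without pairing and 8.2% with the block. Of the 13, 0 were higher and 5 lower in 3 of 3 pairs, beside 14.5% and 15.7% of all tested genes. SRXN1, which repairs oxidised peroxiredoxins and is a target of NRF2, was at 6.75 ± 1.29 CPM with BHB and 13.6 ± 3.63 CPM in controls (log2 fold change -1.01, SE 0.29, unadjusted p = 0.00662, adjusted p = 0.999 in edgeR). AIFM2 (FSP1), which protects membranes from lipid peroxidation, was at 27.1 ± 5.56 and 40.2 ± 5.21 CPM (-0.56, SE 0.20). Both were named for the smallest p of the list. Their groups did not overlap, as in 7.84% of all tested genes, which by itself makes 3 of 3 pairs lower.

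**Figure D5:**
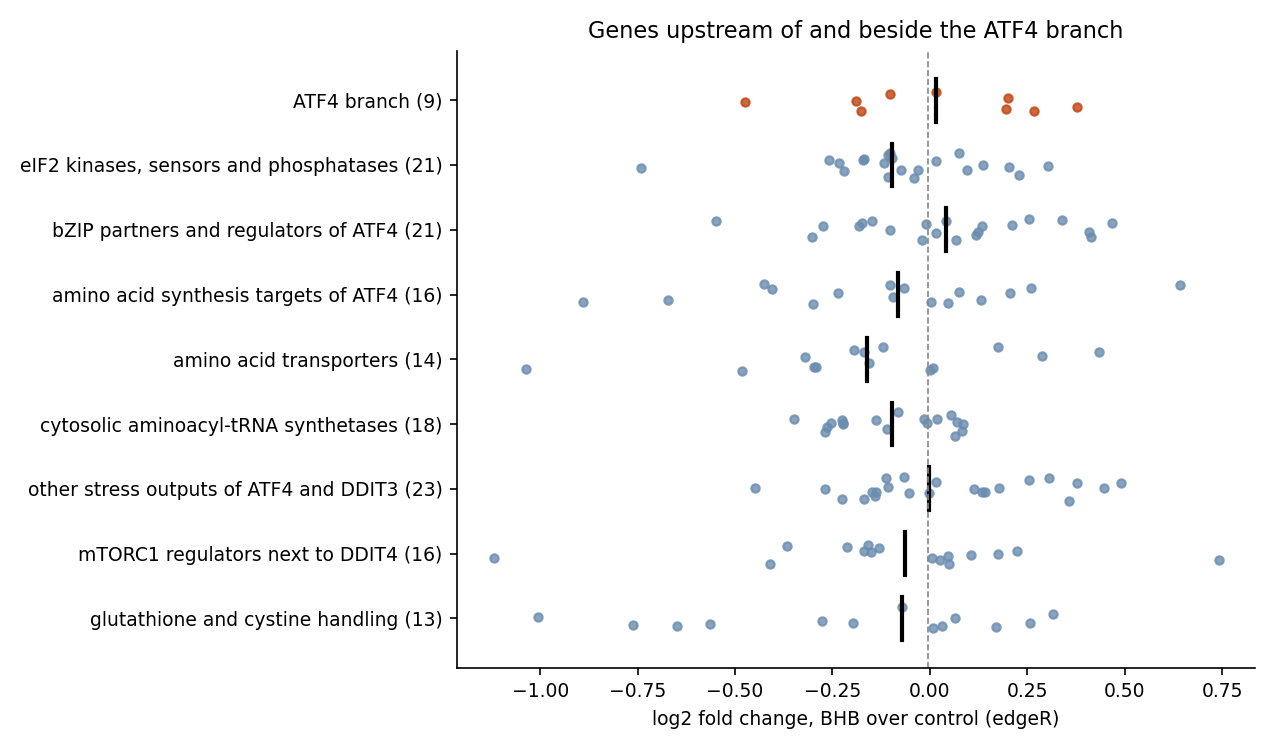
Log2 fold change, BHB over control (horizontal axis), of the 9 genes of the ATF4 branch (orange) and of the tested genes of 8 companion lists (blue), with the number of genes in parentheses; black ticks are medians and the dashed line is the median of all tested genes. Medians lie between -0.16 for amino acid transporters and 0.04 for partners and regulators of ATF4.

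Across the 6 libraries, the 9 genes varied by different amounts. The SD of log2 CPM was smallest in DDIT3 (0.16), SLC7A5 (0.22) and ATF4 (0.26) and largest in SLC7A11 (1.05), CHAC1 (0.46) and ASNS (0.38), with a median of 0.29 over all tested genes. Likeness was measured as the root mean square difference of log2 CPM, centred per gene, over the 6 libraries, among 11406 genes with a symbol. The genes closest to ATF4 were RAB11A, a GTPase of recycling endosomes (0.050), APIP, a methionine salvage enzyme (0.052), the ribosomal protein gene RPS3 (0.054), the RNA helicase gene DDX39B (0.056) and TSPAN31 (0.062), where the median gene was at 0.343. Closest to the mean profile of the 9 genes were ATG101, an autophagy initiation factor (0.027), the general transcription factor gene TBP (0.044), RPS28 (0.056), TMEM14A (0.061) and SNRPB2 (0.062). That mean profile, on the centred log2 scale, was -0.31, 0.016 and 0.24 in BHB libraries 1 to 3 and 0.0022, 0.16 and -0.11 in control libraries 1 to 3, so the BHB libraries held both its lowest and its highest value. Each gene weighs the same in it, also SLC7A11, which had 3 counts in BHB library 1 and 32 in BHB library 3. The profile and its ranking lean on this widely spread gene, and neither was computed without it. The gene closest to SLC7A11 was PAK5, a kinase gene, at 0.293. These rankings describe 6 libraries, and any gene that follows the same libraries ranks high.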

How the data were processed

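Per the labels' protocols, DNase-treated total RNA of blastocyst pools was made into stranded libraries of polyadenylated RNA and sequenced as paired ends in 1 lane. The authors deposited whole-number counts per gene, not normalized. A second deposited table holds their own comparison: per gene, the mean normalized count (a linear signal), the log2 fold change, an error and a test statistic (scores) and the p-value, raw and adjusted. There, a positive log2 fold change means higher in control, judged against the group means. STAR, featureCounts and DESeq2 are named in the submitters' processing notes; no version, build, annotation or counting setting is given in the sources used here. The smallest total of any gene was 38 counts. Samples were grouped by the labelled treatment and numbered in order of deposit.

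BHB was compared with control by edgeR 4.0.16's quasi-likelihood F test (R 4.3.3; TMM, filterByExpr, no covariate, Benjamini-Hochberg over all tested genes at 0.05). The SE is the absolute log2 fold change over the square root of F, and intervals use the fit's t distribution. CPM are TMM-scaled, and log2 CPM has a prior count of 2. DESeq2 1.42.0, limma 3.58.1 (voom), other scalings and filters, a replicate block and fits without each library or pair were alternatives. The edgeR fits with and without the block, DESeq2 and voom were also run on simulated counts. Those held changes larger than any of the members and no pair effect. That run does not show how the fits perform for small changes or with pairs.

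The pairs came from a refit. DESeq2's likelihood ratio test of pair plus treatment against neither matched the deposited p-values to within 1e-06 for 100% of genes under the pairing used, and for 0 to 0.398% under the other 5 pairings. Deviations from group means correlated over genes at 0.46, 0.32 and 0.33 within pairs and at -0.30 to -0.0040 between them. Such deviations cancel within each group, so positive values within pairs by themselves lower those between pairs. Replicates were not duplicates: chi-square per degree of freedom between 2 libraries of a group was 10.5 to 26.5.

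The members and lists were chosen with earlier results of these data known. Named list genes are the 2 with the smallest p in each list, of which 1 is not reported here, plus a fixed set (the kinases EIF2AK1 to EIF2AK4, PPP1R15A, CEBPB, CEBPG, SLC3A2 and MTHFD2), and the genes most like ATF4, the mean profile and SLC7A11, the most variable member. MARS1, ASS1, the ratios to ATF4 and the test between pairs were added after the data were seen. Older symbols were matched through the ARS-UCD2.0 gene table for 16 of the 18 synthetase genes and for 1 gene of the eIF2 list, DELE1. A planned search of promoters for ATF4 elements was not run, and no coordinates are given since no build is named.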

Additional observations from a re-analysis of the deposited data

How the results depend on the processing

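The 9 genes of the ATF4 branch had 0 calls under every one of the 18 alternatives run. The number of genes called over the whole table was 0 by edgeR without pairing; DESeq2's Wald test called 6, and 35 with the replicate block, while edgeR with the replicate block called 0. MTHFD2 alone, 1 gene of the amino acid synthesis list, was called by the blocked DESeq2 test. Fits that left out a library or a pair called between 0 and 16 genes. The number of the 9 genes below 0 was 4, and ran from 2 (without control library 2) to 5 when a library or pair was left out. ATF4, ATF3, TRIB3, ASNS and SLC7A5 kept their direction under every alternative; ATF4 ran from -0.35 to -0.0090 and ATF3 from 0.26 to 0.55. With 1 library left out, the direction turned for DDIT3 (-0.090 to 0.12), CHAC1 (-0.38 to 0.10) and SLC7A11 (-1.63 to 0.41). With the replicate block and a pair left out, it turned for DDIT3 (-0.12), CHAC1 (0.056) and SLC7A11 (0.090) without pair 1, for SLC7A11 (0.36) without pair 2 and for DDIT4 (-0.035) without pair 3. The cause was not tested. The planned stricter filter of 1 CPM in 3 libraries removed no gene; a filter of 5 CPM and the fits without a pair were added after seeing the data, and that filter left out SLC7A11. Library size alone moved the median of all genes to 0.06. CHAC1 had 207 counts in all and SLC7A11 92, the lowest totals of the 9 genes.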
